A study of Rattus norvegicus with 24 samples.

Results

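The genes described here encode the ion channels, ion pumps and calcium handling proteins of rat heart ventricles. They were taken by name alone: every gene on the array whose symbol began with Kcn, Scn and a digit, Cacn, Ryr, Itpr and a digit, Atp1a, Atp1b, Atp2a, Atp2b, Slc8a or Casq, together with Pln. This rule took 109 symbols on 116 probes. Of these, 79 had a value on at least 2 arrays of each right ventricle group, and these are the members, among 3199 features that met the same condition. A further 20 symbols had values on too few arrays, including the inositol trisphosphate receptor genes Itpr1, Itpr2 and Itpr3 and the inward rectifier gene Kcnj12. The other 10 had no value on any array, including the potassium channel gene Kcna5.

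Total RNA from 24 ventricle samples was hybridised to 2-colour arrays, each against a common pool of unstated composition. All samples are labelled as taken at day 14 and as HYP, CHF or CON, with 6 right ventricle and 2 left ventricle samples of each. From the series title, which names monocrotaline, HYP is taken as compensated hypertrophy, CHF as the decompensated, failing state and CON as the control, although the labels leave the abbreviations unexplained. Monocrotaline, a plant toxin, damages vessels of the lung and so raises the load on the right ventricle. The sources used here give no dose, no treatment of the CON rats, and no strain, sex or age. Nothing in the labels states that the samples came from separate animals, so p-values measure only how far these samples spread, and that spread may be technical.

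In a ventricular myocyte, sodium channels start the action potential, L-type calcium channels hold its plateau, and several potassium channels end it. Calcium entering through the L-type channel opens the ryanodine receptor of the sarcoplasmic reticulum, and the released calcium starts contraction. The SERCA pump, restrained by phospholamban, returns calcium to the store, while the sodium-calcium exchanger and the plasma membrane pumps move it out of the cell. In heart failure models this set is known for loss of the transient outward potassium current and for slower calcium uptake into the store.

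The deposited values are scores of sample against reference pool with an unstated scale. Array means lay between -0.0345 and 0.0713 and array SDs between 0.870 and 1.01, so a score is given here in array SDs after subtraction of the array's median. A difference between groups is in the same unit and is no fold change. Levels of different genes cannot be compared on this scale, since each is relative to its own level in the pool. An array held between 2162 and 3658 values, 44 of the 79 members had a value on all 18 right ventricle arrays, and 42 on all 24 arrays. Tissue was profiled whole, so fewer cells of a type and less RNA per cell cannot be told apart.

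Several arrays stood apart from the rest. Across the members, the correlation of an array with the median of the other right ventricle arrays was -0.0290 for CHF array 14, 0.0604 for HYP array 04 and 0.152 for CHF array 10. The other 15 right ventricle arrays lay between 0.251 and 0.706. Over all probes, CHF array 14 correlated with HYP array 08 at -0.530, and the sources used here do not name the dyes, so that which way a score points is unsettled. Higher and lower are therefore read as sample over pool. Each comparison was also run with the sign turned on 5 arrays, which were CHF 10 and 14 of the right ventricle and CHF 09, CON 21 and CON 22 of the left. These 5 came from pairs of arrays that correlated below -0.3 over all probes. The member of a pair that resembled the right ventricle arrays less was turned. This choice was made with earlier results of these data known. All fits were also run without CHF right ventricle arrays 10 and 14. HYP array 04 was not turned and stayed in those fits, so in the right ventricle both settings alter CHF and leave HYP as it is.

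Few of the channel, pump and calcium genes differed between conditions in the right ventricle beyond the spread between arrays. In CHF against CON, limma with Benjamini-Hochberg adjustment called 1 of 79 members at an adjusted p below 0.05, against 0.907% of all 3199 features, and that member was the potassium channel gene Kcnh5. Another 5 had an unadjusted p below 0.05, which makes 6 members, or 7.59%, beside 8.50% of all features. Scn10a and Kcne3 were higher in CHF by these unadjusted values, and Cacna2d1, Kcng2 and Kcns1 lower. The median difference over the 79 members was -0.188 beside -0.0992 over all features, and 32 of them were above 0, or 40.5%, beside 41.2%. The members as a set thus lay close to the background in this comparison.

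In HYP against CON, limma called 0 of 79 members, beside 0.281% of all features, and 5 had an unadjusted p below 0.05, or 6.33% beside 4.10%. These were Kcnh5, Kcnip2, Kcnj9 and Cacnb1, with higher values in HYP, and Kcnmb4, with lower values. The median difference was -0.0836 over the members and -0.0456 over all features, and 33 members were above 0, or 41.8%, beside 43.9%. In CHF against HYP, 0 of 79 members were called, beside 0 of all features, and 3 had an unadjusted p below 0.05, or 3.80% beside 4.94%. Of those, Kcnmb4 was higher in CHF, and Scn7a and Cacna2d1 were lower. Of the CHF minus HYP differences, 37 were above 0, or 46.8%, beside 45.5%. Each pair of these comparisons shares a group, so they are not independent of each other.

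With the sign turned on the 5 arrays, limma called 0 of 79 members in CHF against CON, beside 0.281% of all features, and 5 had an unadjusted p below 0.05, or 6.33% beside 10.3%. None of the 5 arrays belongs to HYP or CON of the right ventricle, so the HYP minus CON differences were the same and only the shared estimate of the spread moved. There it called 0, beside 0.0313%, with 7 at an unadjusted p below 0.05, or 8.86% beside 4.19%. In CHF against HYP it called 0, beside 0.0313%, with 9 at an unadjusted p below 0.05, or 11.4% beside 8.03%.

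**Figure D1:**
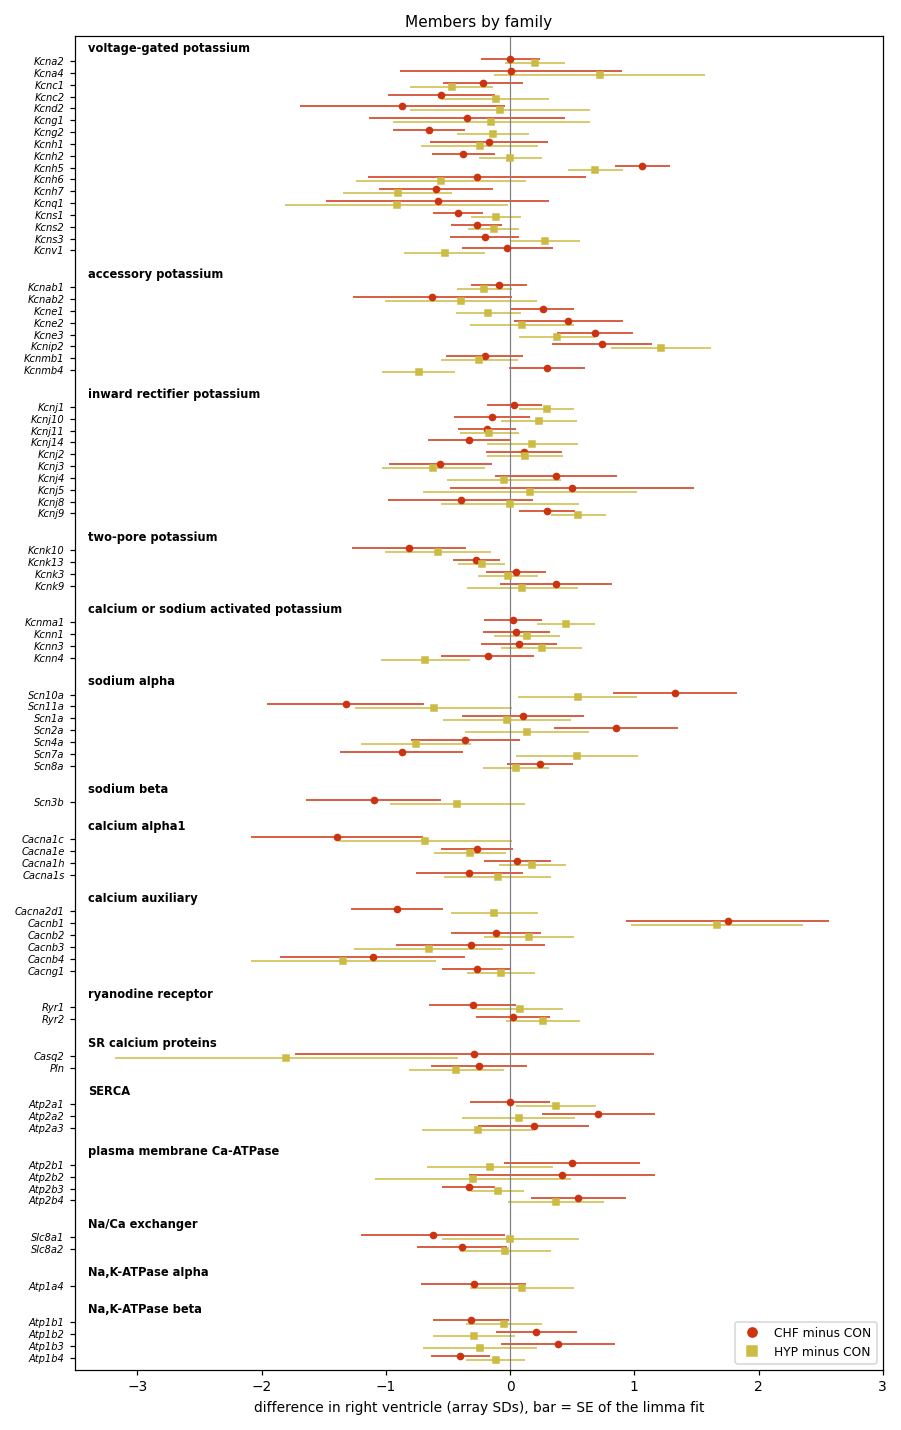
Differences of the 79 members in the right ventricle, in array SDs on the horizontal axis, grouped by gene family, with circles for CHF minus CON, squares for HYP minus CON and bars for the standard error of the limma fit. Kcnh5 stands at 1.07 in CHF and 0.685 in HYP, while the standard errors of Casq2 reach past 1 array SD.

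Kcnh5, which encodes the Kv10.2 voltage-gated potassium channel known mainly from the nervous system, was the member with the clearest difference. Its CON scores in the right ventricle ran from -1.22 to -0.274, with a median of -0.563. Those in HYP ran from -0.229 to 0.489, with a median of -0.0335, and those in CHF from 0.106 to 0.705, with a median of 0.376. All 6 HYP arrays and all 6 CHF arrays lay above all 6 CON arrays, and HYP overlapped with CHF. The CHF arrays 10 and 14 lay within the range of the other CHF arrays, at 0.271 and 0.394.

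The difference of Kcnh5 between CHF and CON was 1.07 ± 0.222 (SE, n = 6 and 6, limma adjusted p = 0.0197, 95% interval 0.600 to 1.53). In HYP against CON it was 0.685 ± 0.222 (n = 6 and 6), with an unadjusted p of 0.00616 and a limma adjusted p of 0.821. Between CHF and HYP the difference was 0.380, with an interval of -0.0848 to 0.845, so that no order of the 2 groups was resolved. The call was not firm. It was lost with the sign turned (0.844, limma adjusted p = 0.282), without CHF arrays 10 and 14 (1.11, adjusted p = 0.0648), and with the CHF and CON arrays alone in the fit (1.07, adjusted p = 0.0682). Leaving out CHF array 09 or 12 or CON array 19, 20 or 22 also ended the Kcnh5 call, at 0.95 to 1.06 with limma adjusted p between 0.0506 and 0.0571. Of 5 measured neuron marker genes, 0 were called in CHF against CON, and their median difference was 0.106. Of the 6 smooth muscle and pericyte markers 1 was called higher in CHF, and their mean score (3 genes) lay between -0.742 and 0.163 in CON and between 0.0913 and 0.95 in CHF. Of the 4 skeletal muscle markers 1 was called higher. Of the 5 fibroblast and 8 cardiomyocyte markers 0 were called, with median differences of -0.479 and -0.574. The fibroblast mean score (4 genes) lay between 0.150 and 1.48 in CON and between -0.800 and 0.778 in CHF. The part of these markers in the Kcnh5 difference was not tested.

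Separation of groups was rare in the rest of the set. Among 47 members with a value on all 12 arrays of CHF and CON, Kcnh5 was the 1 member whose groups did not overlap, beside 1.45% of all such features. In HYP against CON the groups of 2 of 51 such members did not overlap, Kcnh5 and Kcnmb4, beside 0.759% of features. In CHF against HYP this held for 0 of 46 members, beside 0.234%.

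**Figure D2:**
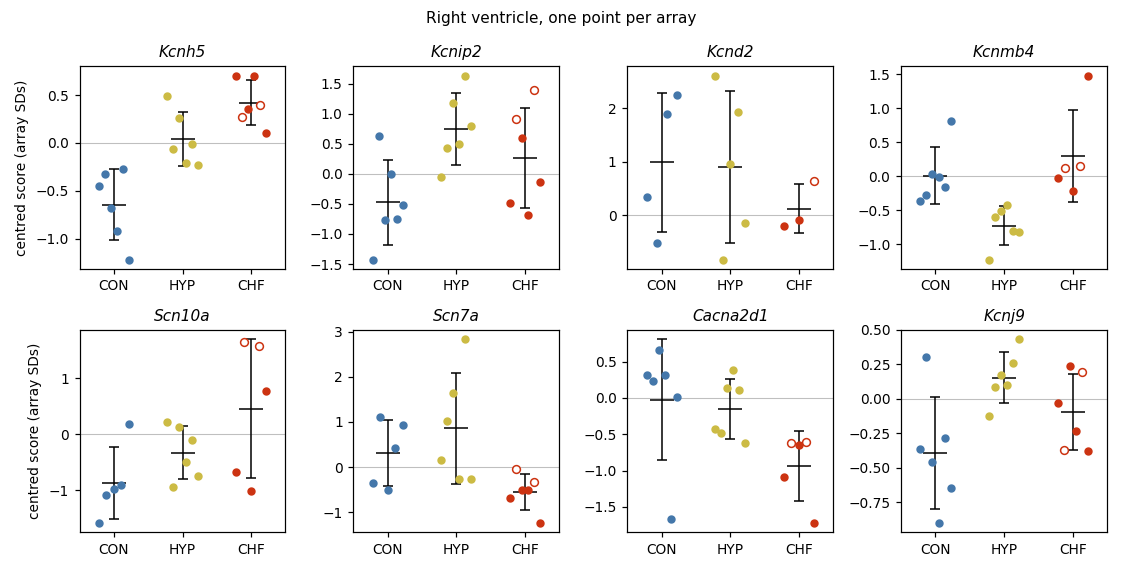
Centred scores of 8 members in the right ventricle, 1 point per array on the vertical axis in array SDs, with long bars for the group mean and error bars for 1 SD, and open symbols for CHF arrays 10 and 14. All CHF and HYP points of Kcnh5 lie above the CON points, all HYP points of Kcnmb4 lie below the CON points, and the 2 highest CHF points of Scn10a are arrays 10 and 14.

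The other voltage-gated potassium genes gave no call in the right ventricle. Of 17 measured in this family, 1 was called in CHF against CON, which was Kcnh5, beside 0.907% of all features. In all, 3 differences of the family were above 0, beside 41.2% of all features. Kcnd2, which encodes the Kv4.2 pore of the transient outward current, had values on 4 CON, 5 HYP and 3 CHF arrays. Its scores were -0.519, 0.351, 1.89 and 2.24 in CON, -0.823, -0.147, 0.959, 1.94 and 2.61 in HYP, and -0.194, -0.088 and 0.651 in CHF. The groups overlapped throughout, and the CHF values lay within the range of CON. Kcnd2 differed by -0.868 ± 0.827 between CHF and CON (n = 3 and 4, unadjusted p = 0.313), with an interval of -2.66 to 0.921. This interval is wide, and neither loss nor gain of Kcnd2 could be resolved.

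Kcna4, which encodes Kv1.4 of the slow transient outward current, had 2 CON, 4 HYP and 3 CHF values and a CHF minus CON difference of 0.00725, with an interval of -1.99 to 2.01. Kcnh2, the pore gene of the rapid delayed rectifier, ran from -0.205 to 0.358 in CON and from -0.999 to 0.181 in CHF, with medians of -0.130 and -0.391. Its groups overlapped, and the difference was -0.377 (limma adjusted p = 0.720). The 2 Kcnh2 probes correlated at -0.275 over 12 arrays, so their mean is uncertain.

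Kcnq1, the pore gene of the slow delayed rectifier, was dominated by 1 array. CON array 17 was at 4.18, while the other 4 CON values lay between -0.781 and -0.204. With it the Kcnq1 difference of CHF from CON was -0.584, and without it 0.337. Kcng2 and Kcns1 encode silent subunits that modify other voltage-gated channels. Kcng2 ran from -0.515 to 0.657 in CON and from -1.26 to -0.068 in CHF, with medians of -0.259 and -0.824. It differed by -0.653 (unadjusted p = 0.0353, limma adjusted p = 0.532). Over 9 alternative settings of the processing the Kcng2 difference lay between -0.719 and -0.282. In 7 of them its unadjusted limma p was below 0.05. Kcns1 ran from 0.204 to 0.823 in CON and from -0.359 to 0.260 in CHF, with medians of 0.410 and 0.105. The Kcns1 difference was -0.423 (unadjusted p = 0.0493, limma adjusted p = 0.580) and was -0.259 without CHF arrays 10 and 14, which held its 2 lowest CHF scores.

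Among the accessory potassium subunits, Kcnip2 and Kcnmb4 had an unadjusted p below 0.05 in HYP against CON, without passing the adjusted threshold. Kcnip2 encodes KChIP2, which traffics the Kv4 channels to the membrane and sets the size of the transient outward current. Its scores ran from -1.43 to 0.626 in CON, with a median of -0.632, from -0.0445 to 1.64 in HYP, with a median of 0.651, and from -0.688 to 1.40 in CHF, with a median of 0.234. Most HYP arrays were above most CON arrays, and CON arrays 18 and 20 lay within the HYP range. The difference of HYP from CON was 1.22 ± 0.402 (n = 6 and 6, unadjusted p = 0.00696, limma adjusted p = 0.861), and it was above 1 with any single array left out, from 1.03 to 1.44.

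Kcnip2 in CHF rested on the arrays that stood apart. CHF arrays 10 and 14 had the 2 highest CHF scores, 0.911 and 1.40. The difference of CHF from CON was 0.737 with them, 0.293 without them and -0.0327 with their sign turned, at limma adjusted p of 0.640, 0.791 and 0.976. Against HYP, the Kcnip2 difference of CHF was -0.481 with them, -0.925 without them and -1.25 with the sign turned, with unadjusted p of 0.246, 0.0333 and 0.00359. None of these passed the adjusted threshold, at 0.956, 0.855 and 0.573 by limma.

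Kcnmb4 encodes the beta-4 subunit of the large-conductance calcium-activated potassium channel. All 6 HYP scores lay between -1.23 and -0.425, with a median of -0.700, while CON ran from -0.360 to 0.813 and the 5 CHF values from -0.220 to 1.48. HYP overlapped with neither group. The HYP minus CON difference of Kcnmb4 was -0.737 ± 0.292 (n = 6 and 6, unadjusted p = 0.0216, limma adjusted p near 1). Its CHF minus HYP difference was 1.03 ± 0.307 (n = 5 and 6, unadjusted p = 0.00353, limma adjusted p = 0.772), and 0.922 with the sign turned. Kcnma1, the pore gene of the same channel, differed the other way, with HYP minus CON at 0.450 (unadjusted p = 0.0680) and CHF minus HYP at -0.430 (unadjusted p = 0.0803). Neither passed after adjustment by limma, and with the sign turned the Kcnma1 difference of CHF from HYP was -0.678 (unadjusted p = 0.00459, limma adjusted p = 0.573).

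In HYP against CON, 0 of the 8 cardiomyocyte, 5 fibroblast, 6 smooth muscle, 5 neuron and 4 skeletal muscle markers were called by limma, and 1 smooth muscle and 1 skeletal muscle marker had an unadjusted p below 0.05. The fibroblast mean score lay between 0.150 and 1.48 in CON and between -0.175 and 1.11 in HYP. The part of these markers in the Kcnip2 and Kcnmb4 differences was not tested.

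Kcne3, a small beta subunit that alters the gating of several potassium channels, ran from -0.849 to 0.431 in CON and from 0.013 to 1.25 in CHF, with medians of 0.136 and 0.619. The groups overlapped, and the difference was 0.685 ± 0.306 (n = 6 and 6, unadjusted p = 0.0377, limma adjusted p = 0.533). Over 9 alternative settings of the processing the Kcne3 difference lay between 0.342 and 1.02. In 8 of them its unadjusted limma p was below 0.05. Kcne1, the partner of Kcnq1, differed by 0.261, with an interval of -0.267 to 0.789.

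The inward rectifiers, which hold the resting potential, gave 0 calls in 10 measured genes. Kcnj2, the main pore gene of the resting inward rectifier current, was nearly level: its medians were -0.246 in CON, -0.182 in HYP and -0.293 in CHF. The CHF minus CON interval of Kcnj2 was -0.534 to 0.753. Kcnj4, another pore of that current, differed by 0.367, with an interval of -0.677 to 1.41. Kcnj11, the pore of the ATP-sensitive channel in the myocyte membrane, was below 0 on all 18 right ventricle arrays with no sign turned. It differed by -0.188 in CHF, with an interval of -0.680 to 0.305. Abcc9, the regulatory subunit of that channel, which the name rule does not take, differed by -0.422 in CHF and -0.386 in HYP (limma adjusted p = 0.745 and near 1).

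Kcnj8, the ATP-sensitive pore of vascular muscle, differed by -0.398 in CHF with all arrays (unadjusted p = 0.504). Without CHF arrays 10 and 14 the Kcnj8 difference was -1.28 (unadjusted p = 0.0372), and limma adjusted p was 0.881 and 0.508. Kcnj9, a subunit of the G-protein-gated rectifier known mainly from brain, ran from -0.902 to 0.301 in CON, from -0.122 to 0.434 in HYP and from -0.377 to 0.235 in CHF. Most HYP arrays of Kcnj9 lay above most CON arrays, with 1 CON array among them. The HYP minus CON difference was 0.548 ± 0.222 (n = 6 and 6, unadjusted p = 0.0235, limma adjusted p near 1).

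The 4 two-pore and 4 calcium- or sodium-activated potassium genes gave 0 calls in any of the 3 right ventricle comparisons by limma, and 0 at an unadjusted p below 0.05. Kcnk3, which encodes the background channel TASK-1, differed by 0.0442 in CHF and -0.0177 in HYP. Its CHF minus CON interval was -0.463 to 0.551.

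Sodium channels carry the upstroke of the action potential. Of 7 measured alpha subunit genes, 0 were called. Scn10a, the Nav1.8 pore known mainly from sensory neurons, had CON scores of -1.58, -1.07, -0.967, -0.904 and 0.188 and CHF scores of -1.01, -0.677, 0.773, 1.57 and 1.64. The CHF arrays split into 2 low and 3 high values, and the 2 highest were arrays 10 and 14. The Scn10a difference was 1.33 ± 0.498 (n = 5 and 5, unadjusted p = 0.0164, limma adjusted p = 0.408), 0.563 without those arrays and 0.0420 with their sign turned.

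Scn7a, which encodes a sodium-sensing channel, was lowest in CHF. Its 6 CHF scores lay between -1.24 and -0.050, with a median of -0.510, all below 0. HYP ran from -0.267 to 2.83 and 5 CON values from -0.510 to 1.1, so that both overlapped with CHF. The CHF minus HYP difference was -1.41 ± 0.471 (n = 6 and 6, unadjusted p = 0.00783, limma adjusted p = 0.938), -1.28 with the sign turned and -1.59 without CHF arrays 10 and 14. In CHF against CON the Scn7a difference was -0.872 (limma adjusted p = 0.653).

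Of the L-type calcium channel genes, the pore gene Cacna1c showed the lowest CHF minus CON value of all 79 members, and 1 array made most of it. CON array 17 was at 4.94, while the other CON arrays lay between -0.154 and 0.303, HYP between -0.908 and 1.21 and CHF between -1.48 and 0.463. With array 17 the difference was -1.39 ± 0.694 (n = 6 and 6, limma adjusted p = 0.602). Without it the Cacna1c difference was -0.590 ± 0.399 (limma adjusted p = 0.868). The same array gave the high Kcnq1 value.

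Cacna2d1 encodes the alpha2-delta subunit that brings the pore to the surface. Its 5 CHF scores were -1.72, -1.08, -0.645, -0.618 and -0.613. In HYP they ran from -0.623 to 0.379, with a median of -0.157. In CON, 5 arrays lay between 0.015 and 0.656 and array 21 was at -1.67. Apart from that CON array, every CHF value was below every CON value. The CHF minus CON difference was -0.912 ± 0.370 (n = 5 and 6, unadjusted p = 0.0242, limma adjusted p = 0.477). Without CON array 21 it was -1.24 with a limma adjusted p of 0.0359. Each array was left out in turn, and for the named members this was the 1 fit that gained a call. It is singled out after its values were seen. CON array 21 did not stand apart over the members, with a correlation of 0.559 with the median of the other right ventricle arrays. Cacna2d1 also differed between CHF and HYP, by -0.786 (unadjusted p = 0.0481, limma adjusted p = 0.938). With the sign turned these values were -0.420 and -0.294.

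The beta subunits of the calcium channel set its gating and surface number. Cacnb2, the main cardiac form, differed by -0.112 in CHF and 0.153 in HYP (limma adjusted p = 0.948 and near 1). Cacnb1, the skeletal muscle form, had CON scores of -3.15, -2.44, -1.97 and -1.82, HYP scores from -2.16 to 0.821 and CHF scores of -2.34, 0.084 and 0.474. Its HYP minus CON difference was 1.66 ± 0.690 (n = 6 and 4, unadjusted p = 0.0304, limma adjusted p near 1), and the CHF minus CON difference was 1.75 on 3 and 4 arrays (unadjusted p = 0.0502).

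Genes of the sarcoplasmic reticulum gave 0 calls between conditions. Ryr2, the release channel, had medians of -0.0177 in CON, 0.446 in HYP and 0.168 in CHF, with overlapping groups. Its CHF minus CON difference was 0.0237, with an interval of -0.604 to 0.651. Pln, which encodes phospholamban, was above 0 on all 18 right ventricle arrays and was the only member of which this held. Its medians were 1.46 in CON, 0.880 in HYP and 1.03 in CHF, and the CON arrays spread most, from 0.205 to 2.44. The Pln difference was -0.251 in CHF and -0.432 in HYP, with intervals of -1.05 to 0.551 and -1.23 to 0.370.

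**Figure D3:**
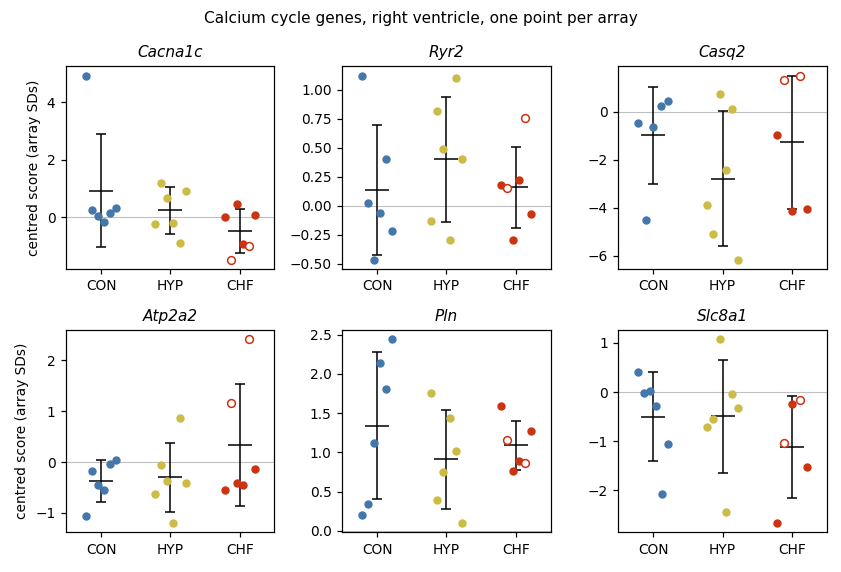
Centred scores of 6 calcium cycle genes in the right ventricle, 1 point per array on the vertical axis in array SDs, with long bars for the group mean, error bars for 1 SD, and open symbols for CHF arrays 10 and 14. Groups overlap in each of the 6 genes, 1 CON point of Cacna1c lies at 4.94, and the 2 highest CHF points of Atp2a2 and of Casq2 are arrays 10 and 14.

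Casq2, which encodes the calcium-binding store protein calsequestrin, varied most of all 79 members, with a pooled SD within groups of 2.57 where the median member had 0.632. Its scores were -4.50, -0.651, -0.472, 0.248 and 0.452 in CON, -6.16, -5.11, -3.89, -2.42, 0.131 and 0.739 in HYP and -4.14, -4.07, -0.966, 1.31 and 1.5 in CHF. High and low arrays occurred in every condition. The 3 highest of these 16 values were CHF arrays 14 and 10 and HYP array 04, the arrays that correlated least with the rest. The CHF minus CON difference of Casq2 was -0.287, with an interval of -3.33 to 2.76. Without CHF arrays 10 and 14 it was -2.07 (limma adjusted p = 0.644).

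Atp2a2 encodes SERCA2, the pump that refills the store. Its CON scores ran from -1.07 to 0.046 and its HYP scores from -1.20 to 0.858, with medians of -0.311 and -0.395. In CHF, 4 arrays lay between -0.543 and -0.130, and arrays 10 and 14 stood at 1.17 and 2.42. The CHF minus CON difference was 0.712 ± 0.457 (n = 6 and 6, limma adjusted p = 0.697), -0.0138 without those arrays and -0.483 with their sign turned. Atp2a2 thus showed no difference that held under these settings.

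Slc8a1, the sodium-calcium exchanger gene, differed by -0.621 in CHF and 0.003 in HYP, with intervals of -1.84 to 0.598 and -1.16 to 1.17. The 4 plasma membrane calcium pump genes gave 0 calls. Atp2b1 had 3 CHF values, -0.267, 1.51 and 1.79, the upper ones from arrays 10 and 14. Its CHF minus CON difference was 0.498 and became -1.70 with the sign turned (unadjusted p = 0.382 and 0.00459, limma adjusted p = 0.830 and 0.293). For Atp2b3 the 2 probes ran against each other, with a correlation of -0.715 over 22 arrays.

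The sodium-potassium pump keeps the gradients on which all these currents depend. Atp1b1, the main beta subunit, had medians of 0.670 in CON, 0.364 in HYP and 0.233 in CHF and differed by -0.316 in CHF (limma adjusted p = 0.807), with an interval of -0.962 to 0.331. CHF array 12, at -0.989, made most of it, and without that array the Atp1b1 difference was -0.0927. The other 3 beta subunit genes gave 0 calls.

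A list of 30 genes of the working ventricular myocyte was also set apart, and 21 of them were members. In each of the 3 right ventricle comparisons 0 of 21 were called by limma and 1 had an unadjusted p below 0.05: Cacna2d1 in CHF against CON, Kcnip2 in HYP against CON and Cacna2d1 in CHF against HYP. Over all features, 8.50%, 4.10% and 4.94% had such an unadjusted p in these comparisons, in the same order. Of 32 measured partner genes outside the name rule (calmodulin, its kinase and phosphatase, adrenergic receptors, junction proteins), 0 were called in each comparison. Over all features, 0.907%, 0.281% and 0 were called, in the same order. In CHF against CON 2 of the 32 partner genes had an unadjusted p below 0.05, beside 8.50% of all features. These were the beta-1 adrenergic receptor gene Adrb1 at -1.08 and the calmodulin gene Calm2 at -0.687 (limma adjusted p = 0.315 and 0.549).

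**Figure D4:**
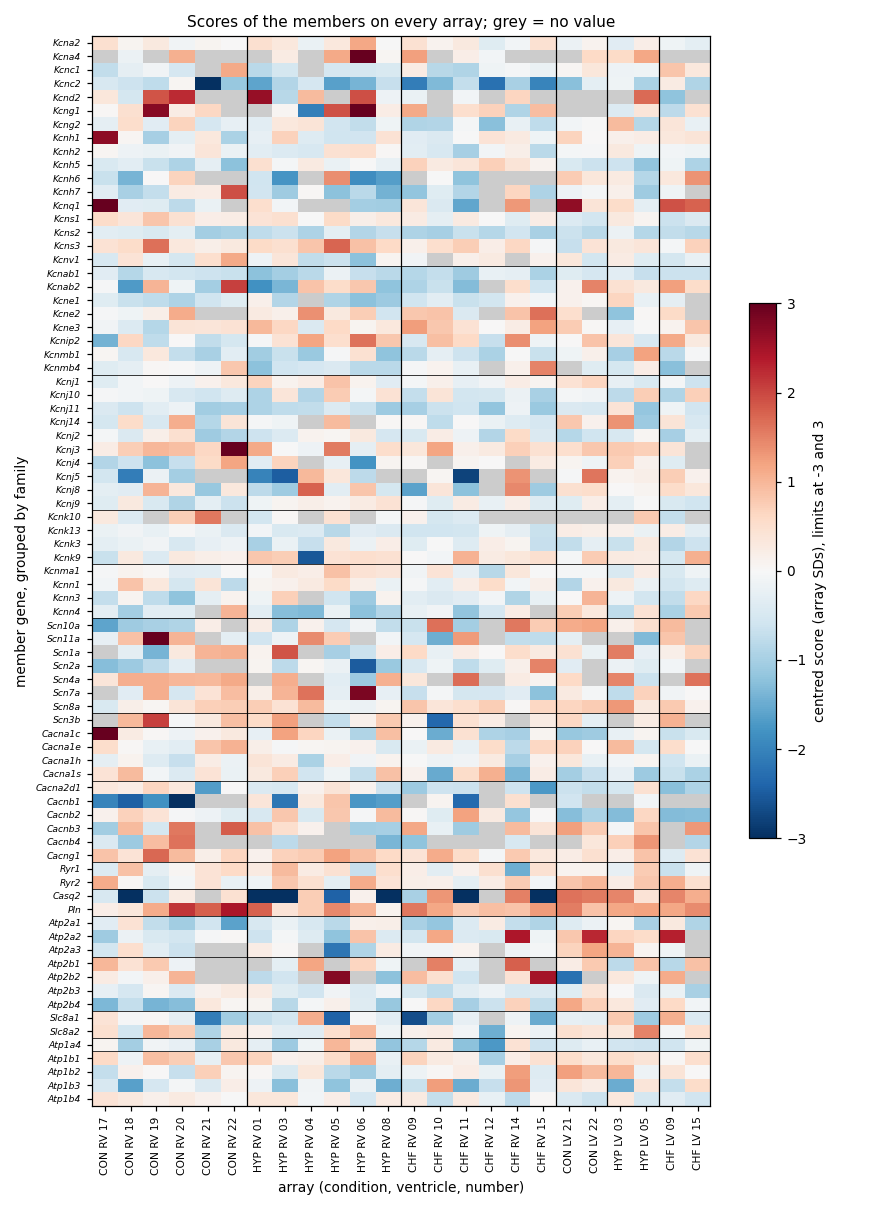
Heat map of the centred scores of the 79 members (rows, grouped by family) on the 24 arrays (columns, by condition and ventricle), with colour limits at -3 and 3 array SDs and grey for no value. Of all cells, 8.44% have no value, and Pln is above 0 across the right ventricle arrays. Casq2 has scores below and above 0 in each right ventricle group, and only scores above 0 in the left ventricle.

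Members differed in how much they varied between arrays of 1 group. The pooled SD within right ventricle groups ran from 0.202 for the two-pore channel gene Kcnk13 to 2.57 for Casq2, with a median of 0.632, beside 0.662 over all features. Kcnab1, Kcnj11, Kcnk13 and Kcns2 were below 0 on all 18 arrays. The first principal component, the largest pattern shared across the right ventricle arrays, held 43.3% of the variation over 1656 features. CHF arrays 14 and 10 and HYP array 04 scored highest on it. Casq2 correlated with it at 0.926, Kcnj8 at 0.902 and Cacna1s at -0.951. The median absolute correlation was 0.386 over 44 members, beside 0.558 over those 1656 features. The part of this component in any difference was not tested. For 6 members with more than 1 probe, the probes often disagreed. The pairs correlated at -0.128 for Ryr1, -0.101 for Scn8a and between -0.514 and 0.392 for the 3 probes of Cacna1e. A mean of such probes is reported for these genes, and its value is uncertain.

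Between the ventricles, 4 channel and calcium genes passed the threshold. Of 58 members measured in all 6 groups, limma called 4, or 6.90%, beside 18.3% of the 2494 features in that fit. Members with fewer than 2 values in a left ventricle group were not tested between the ventricles, among them Atp2a2, Kcnd2, Kcne1 and Kcna4. Kcns1, Cacnb2 and Kcnh5 were higher in the right ventricle and Casq2 was lower, averaged over the 3 conditions. At an unadjusted p below 0.05 there were 12 members, or 20.7%, beside 36.1%. The median difference was -0.160 over the members and 0.0344 over all features, and 22 members were above 0, or 37.9%, beside 52.0%. With the sign turned on the 5 arrays, limma called 0 members, beside 0 of all features, and 8 members had an unadjusted p below 0.05, or 13.8%, beside 299 of all 2494 features. These calls were made in 1 reading of the direction only. Left arrays CHF 09, CON 21 and CON 22 were turned, and low correlation with right ventricle arrays was part of that choice. Turning them tends to draw the ventricles together, so the lost calls cannot decide whether the ventricles differ.

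Kcns1 scores in the right ventricle ran from -0.359 to 0.823. In the left they were -0.550 and -0.410 in CON, 0.072 and 0.282 in HYP and -0.644 and -0.430 in CHF. The left CON arrays were below all right CON arrays, and both CHF left arrays below all right CHF arrays. The difference was 0.537 ± 0.148 (limma adjusted p = 0.0196) and was 0.0727 with the sign turned. Within the left ventricle the 2 HYP arrays were the highest for Kcns1.

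Cacnb2, the cardiac beta subunit, ran from -1.17 to 1.20 in the right ventricle. Its left values were -1.28 and -0.950 in CON, -1.29 and 0.631 in HYP and -1.30 and -1.27 in CHF. Of the 6 left arrays, 5 lay at the low end, and 1 HYP array did not. The difference was 1.04 ± 0.305 (limma adjusted p = 0.0268) and 0.0312 with the sign turned.

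Kcnh5 in the left ventricle stood at -0.640 and -0.450 in CON, -1.20 and -0.612 in HYP and -0.920 and -0.119 in CHF. Of these 6 values, 5 lay within the range of the right CON arrays, and CHF left array 09 lay above it. The mean difference between ventricles was 0.596 ± 0.178 (limma adjusted p = 0.0279), and 0.119 with the sign turned. By condition, the means of Kcnh5 were -0.644 right and -0.545 left in CON, 0.0413 and -0.903 in HYP and 0.422 and -0.519 in CHF. Whether its effect differed between ventricles was tested by an interaction. For CHF against CON that difference of effects was 1.04 ± 0.435 (unadjusted p = 0.0259, limma adjusted p near 1), and for HYP against CON 1.04 ± 0.435 (unadjusted p = 0.0254, limma adjusted p near 1). With the sign turned the HYP value was 2.13 (limma adjusted p = 0.0425), the 1 member called there beside 1.32% of all features, and the CHF value was 1.79 (limma adjusted p = 0.162). Both CON left arrays and no HYP array were turned, which reverses the CON left mean and by itself raises the HYP value. This call therefore cannot show that the HYP effect differs between ventricles.

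Casq2 had left values of 1.55 and 1.64 in CON, 0.411 and 1.46 in HYP and 1.1 and 1.47 in CHF. All 6 left arrays were above 0, while 10 of 16 right arrays were below it. The difference was -2.95 ± 1.01 (limma adjusted p = 0.0476). It was -1.78 with the sign turned (limma adjusted p = 0.422), and with each array left out in turn Casq2 was called in 6 of 24 fits.

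**Figure D5:**
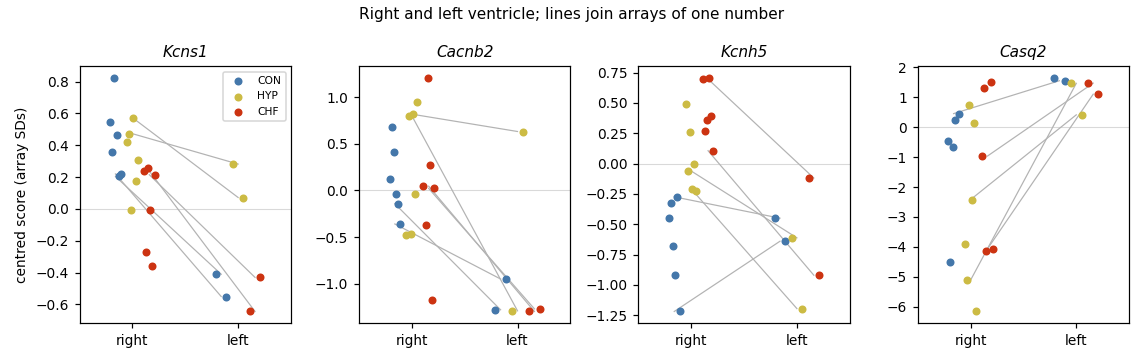
Centred scores of the 4 members called between the ventricles, right and left on the horizontal axis and array SDs on the vertical axis, coloured by condition, with lines between arrays that carry the same sample number. The left values of Casq2 lie between 0.411 and 1.64, and 5 of 6 left values of Cacnb2 lie at or below -0.950.

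Markers of other cells differed between the ventricles as well. Of 4 measured erythrocyte genes, 4 were called lower in the right ventricle, with a median difference of -5.44. Their mean score (3 genes with values on all arrays) lay between -6.65 and -0.740 on the right arrays and between -6.55 and 5.43 on the left arrays. Of 8 cardiomyocyte markers, 3 were called lower in the right ventricle, with a median difference of -1.1, and their mean score (7 genes) lay between -3.22 and 1.45 on the right and between 0.644 and 1.37 on the left. The part of these differences in the 4 member calls was not tested. Among 29 measured partner genes 8 were called, or 27.6%, beside the 18.3% of all features, and 0 were called with the sign turned. The 8 included the pacemaker channel gene Hcn2 at 1.86 (limma adjusted p = 3.55e-07), the ryanodine receptor partner Fkbp1b at 0.566 (adjusted p = 0.0133), Adrb1 at 1.07 (adjusted p = 0.0201) and the calmodulin kinase gene Camk2d at -2.36 (adjusted p = 0.0156).

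The ventricle calls depended on single arrays. Without CON left ventricle array 21 or 22 limma called 0 members, without CHF left array 09 it called 1, and without CHF left array 15 or HYP left array 03 it called 2. It called 7 without HYP right array 04, 8 without CHF right array 14 and 9 without CHF right arrays 10 and 14 together. Among the other 8 members at an unadjusted p below 0.05, the sodium-potassium pump gene Atp1b2 at -0.676 and Ryr2 at -0.507 changed sign with the sign turned, to 0.0373 and 0.365. Kcnk13 was at -0.408 (limma adjusted p = 0.0513), the plasma membrane calcium pump gene Atp2b4 at -0.822 (adjusted p = 0.0575) and the skeletal L-type pore gene Cacna1s at 0.812 (adjusted p = 0.0829).

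Within the left ventricle, where 2 arrays a group borrow the spread estimated over all 6 groups, limma called 0 of 58 members in CHF against CON, HYP against CON and CHF against HYP, beside 0 of all features in each. At an unadjusted p below 0.05 there were 1, 2 and 1 members, beside 0.882%, 1.84% and 3.01% of all features. Kcnj1, a potassium channel gene known mainly from kidney and named here after its values were seen, stood at 0.430 and 0.650 in CON, -0.457 and -0.238 in HYP and -0.610 and -0.065 in CHF. Both CON arrays were above the others. The Kcnj1 difference was -0.877 in CHF and -0.887 in HYP (unadjusted p = 0.0230 and 0.0216, limma adjusted p near 1), and 0.268 and 0.193 with the sign turned. Differences of effect between the ventricles gave 0 calls for CHF and for HYP, beside 0 of all features, with 2 and 4 members at an unadjusted p below 0.05, or 3.45% and 6.90% beside 2.73% and 2.49%. With the sign turned, limma called 0 members for CHF, beside 0.361%, and Kcnh5 for HYP, where both CON left arrays and no HYP array were turned.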

How the data were processed

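The authors' deposited value per probe and array is a score, and the sources used here do not give its scale, the scanner, background correction, dyes, normalization or filters. Samples were grouped by their labels. Probes were named through the platform annotation (4278 of 4803 with 1 symbol, 521 with none, 4 with several); RefSeq GRCr8 was used for names only and changed 0 symbols. Each array was centred on its median, and probes of 1 symbol were averaged. Linear models of limma 3.58.1 (R 4.3.3) with empirical Bayes variances were fitted to all features with at least 2 arrays a group, on the 18 right ventricle arrays or on all 24 arrays in 6 groups, and p-values were adjusted over all of these features (Benjamini-Hochberg, threshold 0.05). The fits were tested on simulated data with independent noise for each gene and array. That test leaves out the variation that genes share on a real array. The members, the lists and the sign-turned arrays were chosen with earlier results of these data known. Named genes were the measured members of the myocyte list, members with an unadjusted p below 0.05 in a right ventricle or between-ventricle comparison, and the 5 smallest p of each. Alternatives changed centring, scale, quantile normalization, sign, filter, probe choice, array weights, fit, sample-number block and single arrays. Numbers shared by right and left arrays were not treated as pairs. The number of arrays limits the precision.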

Additional observations from a re-analysis of the deposited data

Results flagged for a closer look

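Among 109 right ventricle groups of named members with 5 or 6 values, 10 held 1 array far from the rest, where chance gives about 1 in 20. For Cacna1c, CON array 17 was at 4.94 with the others between -0.154 and 0.303. For Kcnq1, CON array 17 was at 4.18 with the others between -0.781 and -0.204. Cacna2d1 was at -1.67 on CON array 21, with the others between 0.015 and 0.656. Casq2 was at -4.50 on CON array 18, with the others between -0.651 and 0.452. Kcnmb4 was at 1.48 on CHF array 15, with the others between -0.220 and 0.156, and at 0.813 on CON array 22, with the others between -0.360 and 0.0345. Atp1b1 was at -0.989 on CHF array 12, where the others lay between 0.155 and 0.667. Atp1b2 was at 1.25 on CHF array 14, where the others lay between -0.383 and 0.215. On HYP array 01, Kcnc1 was at -0.802, with the others between -0.539 and -0.457, and Kcne1 was at 0.164, with the others between -1.23 and -0.874.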

How the results depend on the processing

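For CHF against CON in the right ventricle, the count of called members, 1, was 0 with the sign turned, 0 with the 2 groups alone in the fit and 0 without CHF arrays 10 and 14 (a setting chosen after seeing the data); leaving out single arrays gave 0 to 2. It was 1 with the deposited scores, scaling by the median absolute deviation, quantile normalization, 1 probe per gene, at least 4 arrays a group and array weights. Between the ventricles the count, 4, was 0 with the sign turned, 12 with array weights and 9 without CHF arrays 10 and 14, and leaving out single arrays gave 0 to 8. Arrays of the same sample number deviated together at 0.243, 0.261, -0.200, 0.305, 0.0125 and 0.0577, with 3 of 6 above 0.1 and 2 of 6 correlating best with their own number, so the number was not taken as a pairing. As a replicate block, on 12 arrays, it gave 10 calls, which were Kcns1, Cacnb2, Cacna1s, Kcnc2, Slc8a1, Kcnj8, Atp1b2, Kcnk13, Cacna1c and Atp1b4, and not Kcnh5 (0.496, limma adjusted p = 0.107), while Casq2 was not among the 51 members in that fit. With the sign turned Atp1b2 stood at 0.0373 and Ryr2 at 0.365. The HYP effect between ventricles gained 1 call, with both CON left arrays and no HYP array turned. The other settings gave 3 to 5 calls between ventricles and 0 in each of the comparisons of HYP with the 2 other right ventricle groups and within the left ventricle. Of 118 named results with an unadjusted p of 0.05 or more, 70 changed sign under some alternative. The cause of these changes was not tested.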
